A study of Epimedium pubescens with 12 samples.

Results

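The comparison described here is the effect of phosphorus supply on leaf microRNAs (miRNAs) that was common to an early and a late time point of phosphorus deficiency in Epimedium pubescens, a perennial medicinal herb of the barberry family. All 12 small RNA libraries of the series entered it. The 6 -P libraries were set against the 6 +P libraries in 1 additive model in which the day of sampling was a covariate, so that the phosphorus term is the -P over +P difference averaged over both days. Of the 220 miRNAs in the deposited table, 137 had enough counts to be tested, and they held 99.98% of all counts.

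The -P seedlings received a nutrient solution with 0 mmol/L inorganic phosphate and the +P seedlings received 1 mmol/L. The plants were 1-year-old field-collected seedlings moved to pots of river sand and perlite, and each replication held several seedlings, of no stated genotype. Whether a library pooled them was not stated. Leaves were sampled at 30 days (30d), which the study calls the early stage, and at 90 days (90d), its late stage. This gave 3 libraries (A, B and C) in each of the groups 30d -P, 30d +P, 90d -P and 90d +P. According to the published recipes, the -P solution also differed from the +P solution in its potassium, sodium, nitrate and sulfate salts, so phosphate and these ions cannot be told apart in any -P against +P difference. Nothing in the labels says whether 30d and 90d leaves came from the same pots, and p-values measure the spread between these libraries.

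Plant miRNAs are short RNAs, cut from hairpin precursors, that guide Argonaute proteins to complementary messenger RNAs, which are then cleaved or less translated. In Arabidopsis, miR399 is the best known miRNA of phosphate starvation. It accumulates when phosphate runs short, moves through the phloem and lowers PHO2, a ubiquitin-conjugating enzyme that limits phosphate uptake and transport to the shoot. Names with the prefix aqc, the miRBase code of Aquilegia caerulea, are known miRNAs, and names such as novel_36 are running numbers that the study gave to miRNAs it predicted from hairpin structure. No target or role of the predicted miRNAs tested here was established from these files.

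Designed qRT-PCR primers were at hand for 5 predicted miRNAs of the table. They are shown because they were the only sequences at hand for predicted miRNAs of the table. A designed primer need not equal the mature miRNA, and novel_124 and novel_188 were too low to test. Each line is the forward primer, 5′ to 3′, and nothing in it is marked by capitals.
novel_286: gcttgggactcaagctttgtttg
novel_124: cgttctcgtccttcaacctcatc
novel_188: cgccatgttgtcctcttgcttatc
novel_196: ccgtttcattgtctgttctgccc
novel_269: cgcgctttctttgcaggttttgat

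Library totals ranged from 380316 to 1466897 miRNA counts and overlapped between the treatments. The -P libraries averaged 964314 ± 361256 counts and the +P libraries 956792 ± 416020 counts (SD, n = 6 each). With 3 counts taken as the limit for a miRNA at 0, the limit in 1 library ran between 2.05 and 7.89 TPM (counts scaled to the same library total). Replicates were far apart, with a biological coefficient of variation of 88.9% in the common dispersion, and the fitted log2 fold changes had a median standard error (SE) of 0.77. Along the first principal component (30.1% of the variance), the A and B libraries of 30d lay between -14.1 and -9.63 and the 90d libraries between 2.17 and 12.3. The 30d C libraries lay at 3.30 for -P and at 0.155 for +P, nearer to 90d than to the other 30d libraries, and results are therefore also given without that pair.

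The miRNAs with the clearest phosphorus main effect were more abundant under -P on both days. novel_36 and novel_61 passed the quasi-likelihood (QL) test of edgeR at a Benjamini-Hochberg adjusted p of 0.05, which is 2 of 137 tested miRNAs (1.46%), and both were higher under -P. Neither call held with the replicate letter as a block or under some other scalings, as given below. None was lower at that threshold (0 of 137, 0%), where 6 lower miRNAs had an unadjusted p under 0.05 and DESeq2 with the same filter called 3 lower. By the study's own rule for miRNAs (unadjusted p under 0.05 and a log2 fold change of 1 or more in size) there were 6 higher miRNAs (4.38%) and 6 lower miRNAs (4.38%). The 6 higher were novel_36, novel_61, novel_56, novel_51, novel_73 and aqc-miR399, and the 6 lower were novel_245, novel_57, novel_106, novel_79, novel_187 and novel_103. All 12 had the same sign at 30d and at 90d, whereas 59 of all 137 tested miRNAs had. Those 12 were selected on the mean of both days, which favours a shared sign. Whole leaves were sequenced, so fewer cells of a type and less RNA per cell cannot be told apart.

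**Figure D1:**
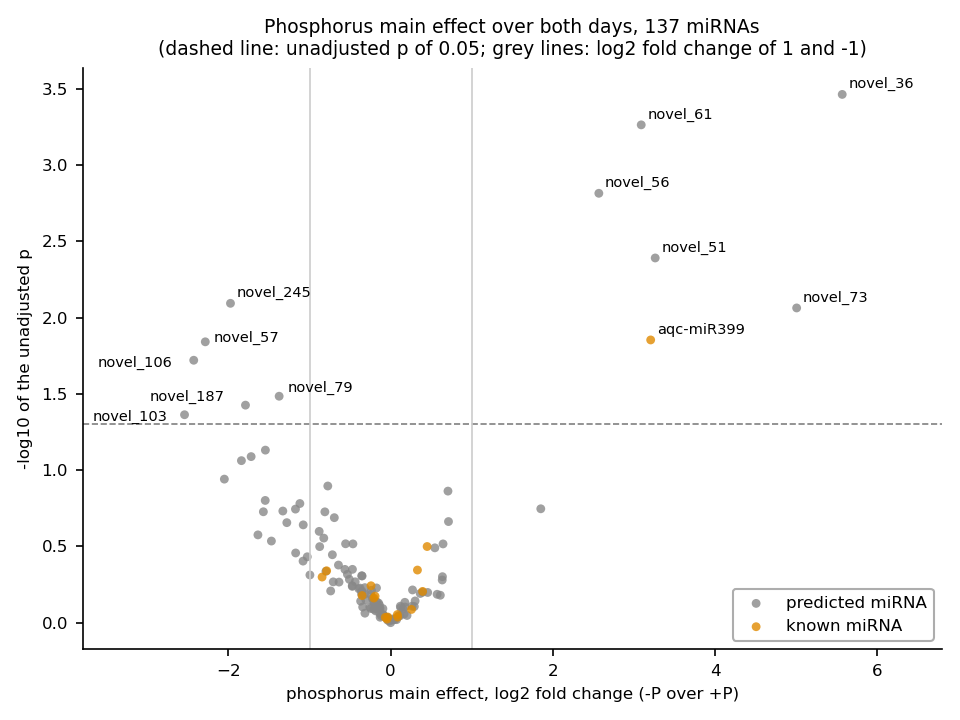
Phosphorus main effect of 137 miRNAs, with the log2 fold change (-P over +P) on the horizontal axis and -log10 of the unadjusted p on the vertical axis; grey points are predicted and orange points known miRNAs. The 6 labelled points on the right, led by novel_36 at 5.57 and including aqc-miR399 at 3.21, stand farther from 0 than the 6 labelled points on the left, which lie between -2.54 and -1.38.

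novel_61 was the clearest of these. At 30d it had 133, 359 and 111 TPM in -P libraries A, B and C, against 52.2, 94.7 and 21.1 TPM in +P libraries. At 90d it had 325, 151 and 339 TPM in -P libraries, against 4.99, 13.2 and 24.2 TPM in +P libraries. Every -P library therefore exceeded every +P library, across days as well as within them. This was the only miRNA whose -P and +P libraries did not overlap within either day with -P on top (1 of 137, 0.73%), and no miRNA showed the opposite order (0%). On counts scaled by the trimmed mean of M-values (TMM), an alternative chosen after seeing the data, novel_36 and novel_61 were both separated in this way. The ratio of mean TPM, -P over +P, was 3.59 at 30d and 19.2 at 90d. Its log2 fold change in the main effect was 3.09 (SE 0.70, adjusted p = 0.0373, edgeR QL test), with 2.35 at 30d and 3.85 at 90d. The test of a difference between both days did not pass (edgeR QL test, unadjusted p = 0.254).

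novel_36 had the largest fold change among the 137. At 30d it had 1579, 269 and 3960 TPM in -P libraries A, B and C, against 388, 176 and 21.1 TPM in +P libraries. At 90d it had 3596, 141 and 5240 TPM in -P libraries, against 12.5, 25.6 and 2.20 TPM in +P libraries. The groups did not overlap at 90d, which with -P on top held for 22 of the 137 tested miRNAs on the TPM scale. At 30d, -P library B lay below +P library A, and this was the 1 exception among the 18 within-day pairs of a -P with a +P library. The B libraries of -P were low on both days beside A and C. The log2 fold change was 5.57 (SE 1.2, adjusted p = 0.0373, edgeR QL test), with 3.80 at 30d and 7.40 at 90d. With 14568 counts over the -P libraries and 369 over the +P libraries, novel_36 was the miRNA of the 6 with the most counts.

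Both calls depended on the scaling, the method, the handling of the replicate letters and single libraries. With the replicate letter as a block, over all libraries or within day, 0 miRNAs had an adjusted p under 0.05 (edgeR QL test). In the block within day the adjusted p of novel_36 was 0.170 (edgeR QL test). Each 30d -P library correlated best with the +P library of its own letter, and no 90d one did. With RLE size factors, library totals or totals without aqc-miR166e in place of TMM, 0 miRNAs had an adjusted p under 0.05 (edgeR QL test), whereas 8 had with the newer edgeR method and 9 with DESeq2 on the same filter. Without 30d +P replicate C, 90d -P replicate A, 90d -P replicate C or any 1 of the 90d +P replicates A, B and C, 0 miRNAs had an adjusted p under 0.05. Only novel_36 remained without 30d -P replicate B and without 90d -P replicate B, and 6 miRNAs passed without 30d +P replicate B. Over the 12 fits that each left out 1 library, the log2 fold change of novel_36 stayed between 5.0 and 6.24, with an adjusted p between 0.0197 and 0.166. That of novel_61 stayed between 2.74 and 3.43, with an adjusted p between 0.00801 and 0.193. Without both 30d replicate C libraries, novel_61 and novel_56 passed (edgeR QL test, adjusted p = 0.0280 and 0.0232), while novel_36 had a log2 fold change of 5.68 and an adjusted p of 0.156.

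novel_56 differed from novel_36 in having even levels under -P at 90d. At 30d it had 776, 980 and 209 TPM in -P libraries A, B and C, against 120, 371 and 97.5 TPM in +P libraries. At 90d it had 384, 392 and 515 TPM in -P libraries, against 8.32, 47.9 and 58.4 TPM in +P libraries. The 90d groups did not overlap, and at 30d only -P library C lay below a +P library. The log2 fold change in the main effect was 2.57 (SE 0.66, adjusted p = 0.0699, edgeR QL test), and 5 of 6 -P libraries exceeded the highest +P library.

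novel_51 and novel_73 resembled novel_36 in their -P libraries, of which B was the lowest on each day. novel_51 had 638, 540 and 1456 TPM in 30d -P libraries A, B and C, against 110, 765 and 40.9 TPM in 30d +P libraries. At 90d, novel_51 had 849, 120 and 1232 TPM in -P libraries, against 10.8, 39.7 and 12.1 TPM in +P libraries. The 30d +P library B stood well above the other +P libraries and above 3 of the -P libraries. novel_73 had 82.5, 32.6 and 134 TPM in 30d -P libraries A, B and C, against 1.74, 55.2 and 2.05 TPM in 30d +P libraries. At 90d, novel_73 had 312, 12.1 and 299 TPM in -P libraries and 0 counts in all 3 +P libraries. With 3 counts over the pooled 90d +P total taken as its limit, novel_73 was at least 226-fold higher in 90d -P leaves. For both miRNAs the 30d +P library B was the highest +P library, whereas for novel_36 it was 30d +P library A. The 90d -P library B was the lowest -P library of both, as it was of novel_36.

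In the main effect, novel_51 had a log2 fold change of 3.26 (SE 0.96, adjusted p = 0.139, edgeR QL test). novel_73 had a log2 fold change of 5.01 (SE 1.65, adjusted p = 0.197, edgeR QL test), a fitted value that depends on how 0 counts are handled. Neither passed the adjusted threshold. novel_73 entered the test through its -P libraries, since 1 of 6 +P libraries reached the level of the count filter. Without 30d +P replicate B both passed it, novel_51 at 4.37 and novel_73 at 7.33, each with an adjusted p of 0.00515 (edgeR QL test). For novel_73 that library was the only +P library at the level of the count filter, so its smaller p there adds no support. In that fit novel_36, novel_61, novel_56 and novel_245 passed as well.

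aqc-miR399 was the only known miRNA with an unadjusted p under 0.05, and it was present at low counts. It reached the level of the count filter, 10.4 TPM in 3 libraries, only through -P libraries (4 of 6, and 0 of 6 +P libraries), and under the stricter filter it was not tested. Its counts were 5, 15 and 3 in 30d -P libraries A, B and C, against 2, 3 and 10 in 30d +P libraries, and 33, 27 and 36 in 90d -P libraries, against 0 in each 90d +P library. In TPM this was 9.38, 19.6 and 4.27 in 30d -P libraries against 3.48, 7.89 and 6.82 in 30d +P libraries, and 22.8, 20.5 and 35.2 in 90d -P libraries. The 30d groups overlapped, because -P library C lay between the +P libraries, and the 90d groups did not. With 3 counts over the pooled 90d +P total taken as its limit, aqc-miR399 was at least 28.1-fold higher in 90d -P than in 90d +P leaves. The log2 fold change in the main effect was 3.21 (SE 1.15, unadjusted p = 0.0140, adjusted p = 0.247, edgeR QL test), so that it did not pass the adjusted threshold. Within 30d alone the log2 fold change was 1.13 (unadjusted p = 0.293, edgeR QL test), and the larger fitted effect was at 90d. Of the 3 families listed here for phosphate starvation (miR399, miR827 and miR2111), miR399 was the only one with a member in the table.

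**Figure D2:**
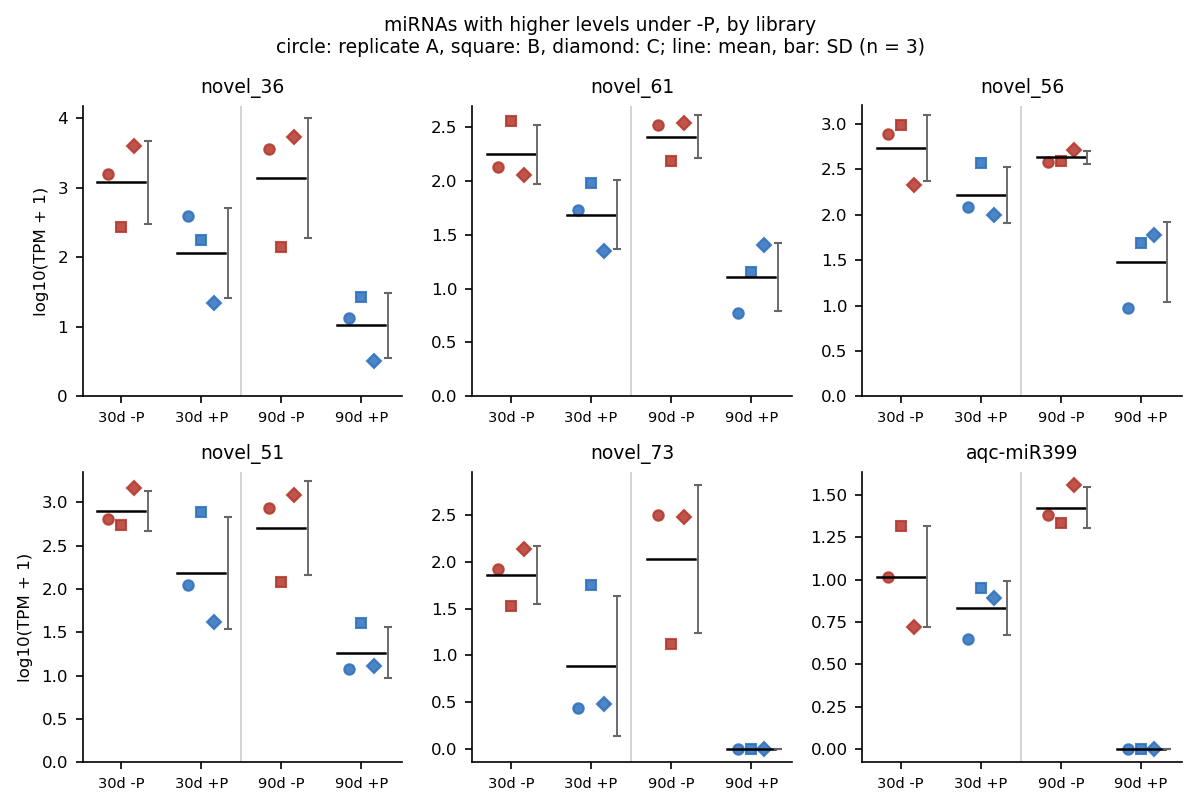
Levels of the 6 higher miRNAs in each library as log10(TPM + 1), with -P (red) left of +P (blue) at 30d and then at 90d; symbols mark replicates A, B and C, black lines the mean and grey bars the SD (n = 3). The 90d groups are apart in all 6 panels, and the 30d groups are apart only for novel_61, where -P levels of 111 to 359 TPM lie above +P levels of 21.1 to 94.7 TPM.

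The 6 lower miRNAs overlapped more between supplies. novel_245 had 13.1, 22.2 and 38.5 TPM in 30d -P libraries A, B and C, against 74.9, 34.2 and 186 TPM in 30d +P libraries. At 90d, novel_245 had 89.3, 64.5 and 53.8 TPM in -P libraries, against 186, 439 and 98.1 TPM in +P libraries. In 1 of the 18 within-day pairs the -P library was the higher one. The log2 fold change was -1.98 (SE 0.64, unadjusted p = 0.00806, adjusted p = 0.197, edgeR QL test), with -1.86 at 30d and -2.09 at 90d.

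novel_79 had fairly even replicates. It had 5.63, 6.53 and 8.55 TPM in 30d -P libraries A, B and C, against 6.96, 18.4 and 20.5 TPM in 30d +P libraries. At 90d, novel_79 had 16.6, 22.0 and 27.4 TPM in -P libraries, against 39.1, 62.8 and 61.7 TPM in +P libraries. The 90d groups were separate, and at 30d only -P library C exceeded a +P library. Its level was higher at 90d than at 30d under both supplies, and in each the -P leaves had the lower mean, with a ratio of mean TPM of 0.452 at 30d and 0.403 at 90d. The log2 fold change was -1.38 (SE 0.58, unadjusted p = 0.0328, adjusted p = 0.449, edgeR QL test).

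The other 4 lower miRNAs had uneven +P libraries. novel_57 had 444, 184 and 58.4 TPM in 30d -P libraries A, B and C, against 2748, 105 and 105 TPM in 30d +P libraries. At 90d, novel_57 had 25.6, 16.7 and 57.7 TPM in -P libraries, against 40.8, 236 and 311 TPM in +P libraries. On the TPM scale the groups overlapped on both days, and the 30d +P library A was far above the rest. On TMM-scaled counts every 90d -P library of novel_57 lay below every 90d +P library, and the 30d groups overlapped. The log2 fold change of novel_57 was -2.29 (SE 0.82, adjusted p = 0.247, edgeR QL test), and it did not pass the study's rule without 30d +P replicate A or without 90d -P replicate A.

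novel_106 had at most 10.8 TPM in any -P library, against up to 59.1 TPM in +P libraries, and was at 0 counts in 1 library of each supply. Its log2 fold change was -2.43 (SE 0.92, adjusted p = 0.290, edgeR QL test). novel_187 ranged from 2.93 to 22.5 TPM (median 12.8) in -P libraries and from 6.61 to 129 TPM (median 17.1) in +P libraries. The B library was the highest +P library of novel_187 on both days, and the log2 fold change was -1.79 (SE 0.78, adjusted p = 0.467, edgeR QL test). novel_103 ranged from 0 to 24.4 TPM (median 4.30) in -P libraries and from 2.20 to 117 TPM (median 9.40) in +P libraries, and its log2 fold change was -2.54 (SE 1.15, adjusted p = 0.495, edgeR QL test). novel_106 and novel_103 entered the test through their +P libraries, with 1 of 6 -P libraries each at the level of the count filter. The ranges of both supplies overlapped for these 3 miRNAs, and -P libraries were the higher ones in 4 to 6 of the 18 within-day pairs.

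**Figure D3:**
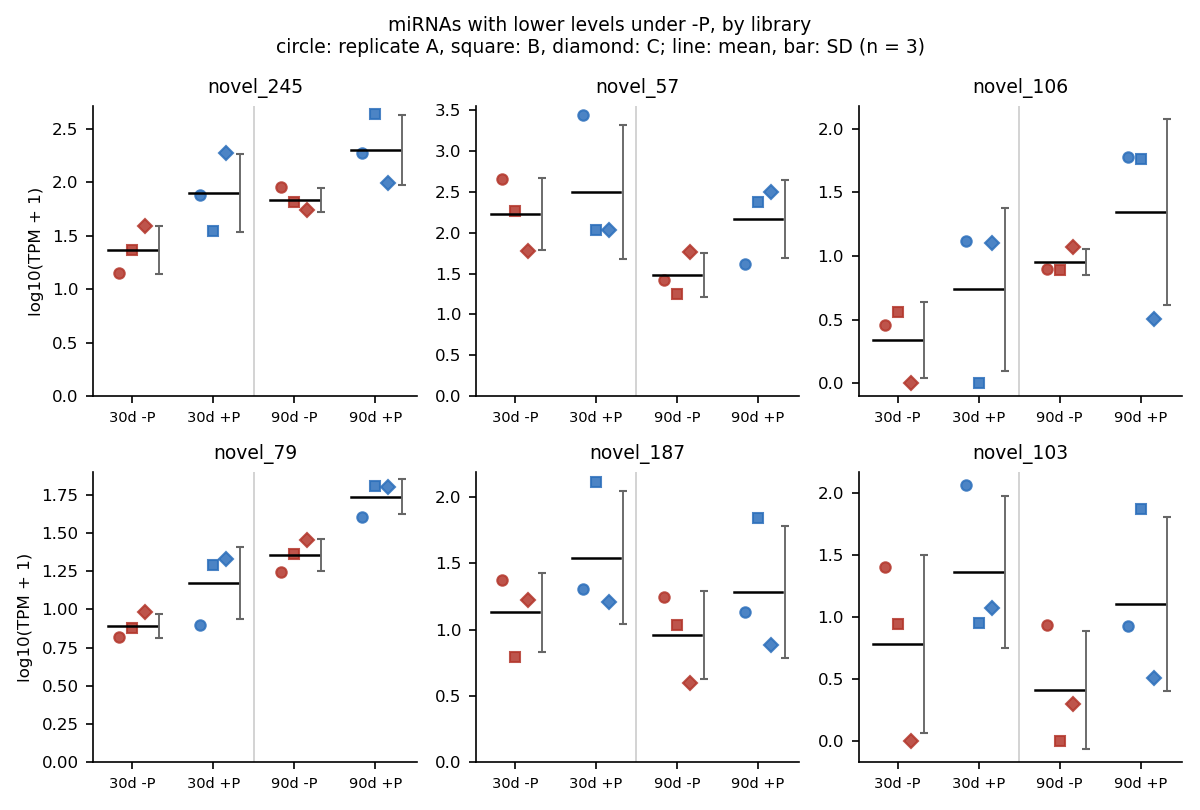
Levels of the 6 lower miRNAs in each library as log10(TPM + 1), with -P (red) left of +P (blue) at 30d and then at 90d; symbols mark replicates A, B and C, black lines the mean and grey bars the SD (n = 3). The -P mean lies below the +P mean on both days in every panel, and the 90d groups are apart for novel_245, where -P stays at or under 89.3 TPM, and for novel_79.

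The 2 sets differed in how they held up, but both had been chosen by the study's rule on these same libraries. Passing it again was therefore in part built in, more so for miRNAs with a small p. In the main fit the unadjusted p was 0.000344 to 0.0140 for the higher set and 0.00806 to 0.0433 for the lower set (edgeR QL test). All 6 higher miRNAs passed the study's rule in 28 of 29 alternative analyses, and in the remaining one, a stricter filter, aqc-miR399 was not tested and the other 5 passed. All 6 lower miRNAs passed in 7 of the 29, and as few as 1 did with limma on log2(TPM + 10). Without both 30d replicate C libraries all 6 higher miRNAs passed, but of the lower ones 2 did, novel_245 and novel_57, and novel_103, novel_106, novel_187 and novel_79 did not. In each of the 12 fits with 1 library left out, novel_245 and novel_106 passed. novel_79 did not pass without 30d -P replicate A, 30d +P replicate C, any 1 of the 90d -P replicates, 90d +P replicate B or 90d +P replicate C. novel_187 did not pass without 30d -P replicates A or B, 30d +P replicate B, any 1 of the 90d -P replicates, or 90d +P replicates A or B. novel_103 did not pass without 30d -P replicates B or C, 30d +P replicate A, any 1 of the 90d -P replicates, or 90d +P replicate B.

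Beyond these, the ranking by p reached miRNAs with little evidence of a phosphorus effect. novel_4, the next higher, is an abundant predicted miRNA that ranged from 13692 to 71269 TPM (median 48514) in -P libraries and from 15739 to 50408 TPM (median 22752) in +P libraries. Its log2 fold change was 0.71 (SE 0.45, adjusted p = 0.977, edgeR QL test), and the 2 ranges overlapped. At 90d alone all -P libraries of novel_4 lay above all +P libraries, as for 22 of the 137 tested miRNAs on the TPM scale. The 30d groups of novel_4 overlapped. novel_243 ranged from 11.3 to 1618 TPM in -P libraries and from 1.74 to 1231 TPM in +P libraries, and its log2 fold change was 1.85 (SE 1.31, adjusted p = 0.977, edgeR QL test). Like novel_36, novel_243 had its 3 highest -P levels in 30d library C and 90d libraries A and C. Among the lower ones, novel_55 had a log2 fold change of -1.54 (SE 0.80, adjusted p = 0.779) and novel_253 one of -1.72 (SE 0.92, adjusted p = 0.791, both edgeR QL test). The highest novel_253 level, 1984 TPM in 90d +P library B, was 1 library of 6, and the median was 155 TPM in -P libraries and 193 TPM in +P libraries.

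Within single days, the effects that made up the average were uneven. Of the 137 tested miRNAs, 18 were higher and 41 lower under -P on both days, and the other 78 had opposite signs. The 90d and 30d effects differed at an adjusted p under 0.05 for 0 miRNAs (edgeR QL test), 7 did so at an unadjusted p under 0.05 (5.11%), and the adjusted p was 0.530 at its smallest. Within 90d, 3 of 137 miRNAs (2.19%) had an adjusted p under 0.05 (edgeR QL test), novel_36 at 0.0243, novel_73 at 0.0278 and aqc-miR399 at 0.0243. Neither novel_73 nor aqc-miR399 was seen in 90d +P leaves, so their fitted effects depend on how absent counts are treated. Both reached the test through their -P libraries, the side on which they were higher. Their p-values within 90d are therefore no support by themselves. Within 30d no miRNA passed at an adjusted p under 0.05, and 5 had an unadjusted p under 0.05 (3.65%). On the TPM scale, all -P libraries lay above all +P libraries for 22 of 137 miRNAs at 90d and for 1 at 30d. They lay below for 9 at 90d and for 5 at 30d. These counts depended on the scaling. On TMM-scaled counts, the scaling of the test, above was no more frequent than below at 90d. At 30d below was not the more frequent order on that scaling. The lean in either direction on the TPM scale is therefore no result about phosphorus.

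**Figure D4:**
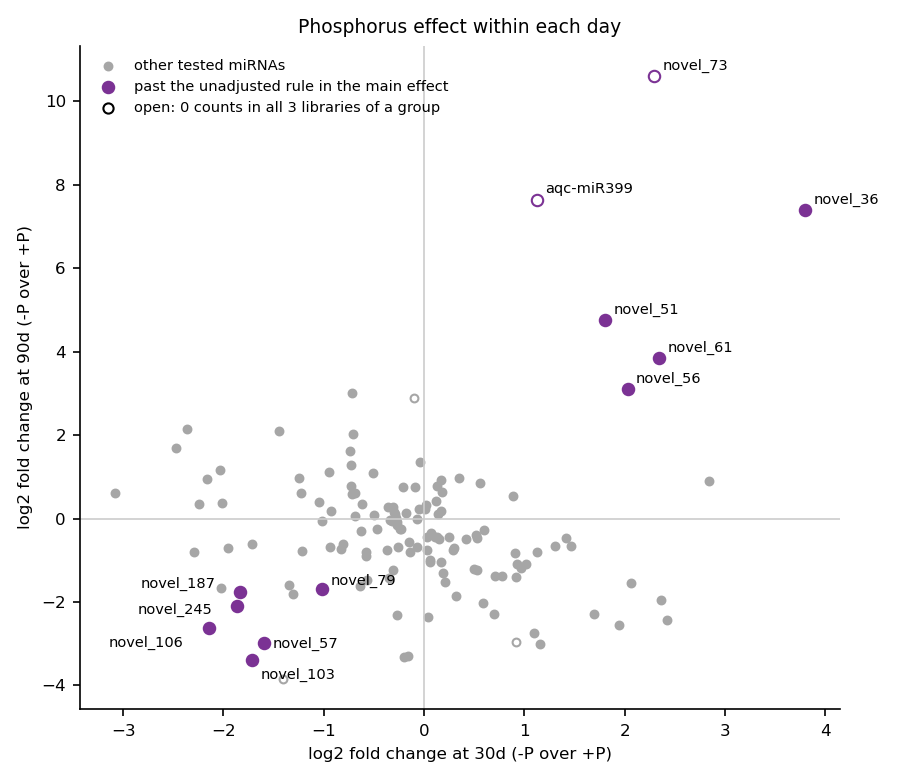
Phosphorus effect within each day for 137 miRNAs, as log2 fold change (-P over +P) at 30d on the horizontal axis and at 90d on the vertical axis; purple points passed the unadjusted rule in the main effect and open points had 0 counts in all 3 libraries of a group. The 6 higher miRNAs lie in the upper right corner, with novel_36 at 3.80 and 7.40, and the 6 lower ones in the lower left, with novel_245 at -1.86 and -2.09.

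Of the 16 known miRNAs tested, 1 had an unadjusted p under 0.05, aqc-miR399, beside 12 of all 137 tested miRNAs (8.76%). Log2 fold changes were positive for 7 known miRNAs and negative for 9, with a median of -0.04 beside -0.21 over all 137. The other 6 known miRNAs were too low to test. The nutrient families listed (sulfate, copper and nitrogen) had 6 members in the table, of which 3 were tested and 0 passed in either direction at an unadjusted p under 0.05. The 8 members of the leaf polarity and shape families, the 2 of the hormone families, the 1 tested of 4 in the phase change families and the single defence member gave 0 as well. Beside the 8.76% over all tested miRNAs, and with so few members tested in each list, these zeros are no result about the families. No member of the listed small RNA pathway families was in the table.

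The miR166 family, which in Arabidopsis targets HD-ZIP III transcription factors that set the upper leaf side, was the most abundant. aqc-miR166e alone held 53.1 ± 8.80% of counts in -P libraries and 52.9 ± 15.4% in +P libraries (SD, n = 6 each), a difference of 0.194 percentage points (exact permutation test within day, two-sided, p = 0.955). aqc-miR166c ranged from 43510 to 100259 TPM (median 65859) in -P libraries and from 32461 to 144887 TPM (median 88546) in +P libraries. The wider spread lay in the +P libraries for both members, and all of these ranges overlapped. aqc-miR166a ranged from 8475 to 22534 TPM in -P libraries and from 8109 to 31642 TPM in +P libraries. Members of 1 family can share reads, and how such reads were assigned was not stated, so levels of single members are uncertain. The predicted novel_1, after aqc-miR166e the miRNA with the largest mean share of counts, ranged from 47909 to 161972 TPM in -P libraries and from 44770 to 158926 TPM in +P libraries.

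miR396, which in Arabidopsis targets growth-regulating factors of leaf cell proliferation, followed aqc-miR399 among known miRNAs, with aqc-miR396a the next highest value. aqc-miR396a ranged from 2234 to 9615 TPM (median 6093) in -P libraries and from 1956 to 7546 TPM (median 4862) in +P libraries. At 90d, aqc-miR396a had 5359, 4676 and 6827 TPM in -P libraries, against 2581, 3017 and 1956 TPM in +P libraries. These 90d groups were apart with -P on top, and the 30d groups overlapped. aqc-miR396b ranged from 11400 to 46213 TPM (median 35683) in -P libraries and from 16039 to 49204 TPM (median 21593) in +P libraries. Its 90d levels were 29265, 37794 and 40924 TPM in -P libraries, against 16104, 16039 and 16468 TPM in +P libraries, which did not overlap, but at 30d the groups did. The main effect was 0.33 (SE 0.43) for aqc-miR396b and 0.45 (SE 0.43) for aqc-miR396a, with an adjusted p of 0.977 for each (edgeR QL test).

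miR398, which in Arabidopsis targets copper/zinc superoxide dismutases, varied widely between replicates. aqc-miR398a ranged from 15 to 224 TPM (median 107) in -P libraries and from 6.96 to 1562 TPM (median 86.9) in +P libraries, and its log2 fold change of -0.85 (SE 1.23, adjusted p = 0.977, edgeR QL test) was the lowest among known miRNAs. aqc-miR398b ranged from 1641 to 39337 TPM in -P libraries and from 513 to 21580 TPM in +P libraries. Its highest -P level was in 30d library C and its highest +P level in 90d library B. The ranges of both supplies overlapped for both miRNAs.

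The remaining families, with targets as known in Arabidopsis, had low or moderate levels whose ranges over both days overlapped between supplies. aqc-miR395b, of a family that targets ATP sulfurylases and a sulfate transporter, ranged from 11.7 to 80.6 TPM in -P libraries and from 2.20 to 239 TPM in +P libraries. aqc-miR171f, of a family that targets GRAS regulators, ranged from 39.5 to 180 TPM in -P libraries and from 10.8 to 365 TPM in +P libraries. aqc-miR171a, of the same family, ranged from 11.4 to 49.6 TPM in -P libraries and from 0.826 to 121 TPM in +P libraries. At 90d, aqc-miR171a had 19.4, 11.4 and 21.5 TPM in -P libraries, against 5.82, 0.826 and 5.51 TPM in +P libraries, which did not overlap, and the 30d groups did. aqc-miR319, of the family that targets TCP factors, ranged from 162 to 850 TPM in -P libraries and from 154 to 1022 TPM in +P libraries. aqc-miR160b, whose family targets auxin response factors, ranged from 15.7 to 57.4 TPM in -P libraries and from 15 to 47.3 TPM in +P libraries. aqc-miR159, whose family targets GAMYB factors, stayed at or under 12.9 TPM in -P libraries and 13.2 TPM in +P libraries. aqc-miR172a, whose family targets AP2-type flowering repressors, had a median of 1.69 TPM in -P libraries and 2.27 TPM in +P libraries, with up to 76.3 TPM in 30d +P library B. aqc-miR477e ranged from 0 to 74.4 TPM in -P libraries and from 7.71 to 78.9 TPM in +P libraries.

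**Figure D5:**
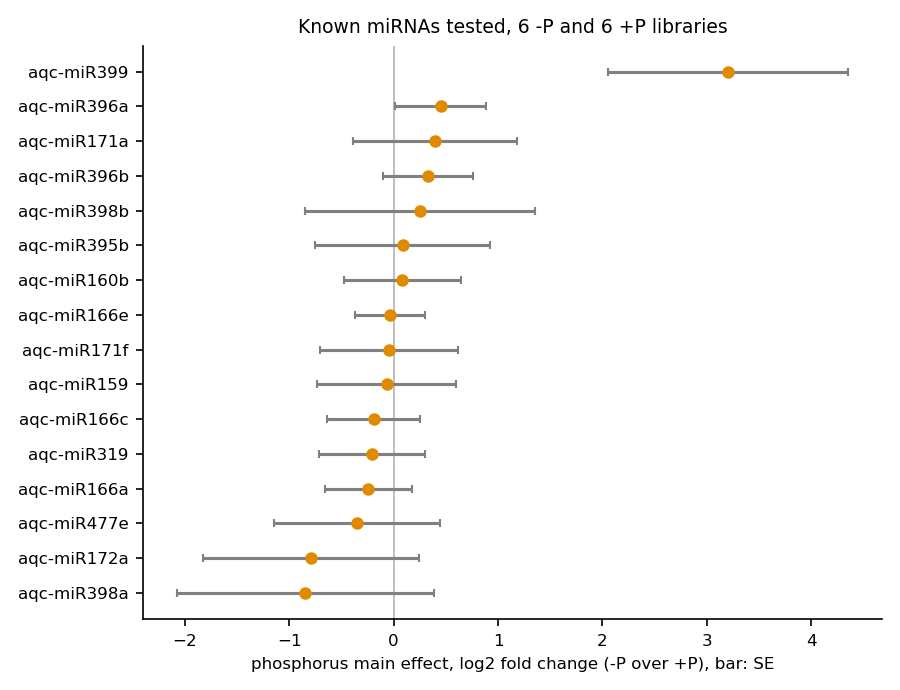
Phosphorus main effect of the 16 known miRNAs tested, as log2 fold change (-P over +P) on the horizontal axis with bars of 1 SE from the edgeR fit of 6 -P and 6 +P libraries. aqc-miR399 at 3.21 stands apart, and the other 15 lie between -0.85 and 0.45.

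Of the predicted miRNAs that the study paired with targets or measured by qRT-PCR, novel_79, described above, passed the unadjusted rule in the average over both days. The study reported these miRNAs in other contrasts. For novel_124 it was -P against +P at 30d, and for novel_79 and novel_286 the same at 90d. For novel_188, novel_196 and novel_269 it was 90d -P against 30d -P. The average over both days does not repeat any of these contrasts. novel_286, whose primer is printed above, ranged from 3.92 to 31.9 TPM (median 7.66) in -P libraries and from 0 to 50.5 TPM (median 13.6) in +P libraries, and its log2 fold change was -0.80 (SE 1.05, adjusted p = 0.977, edgeR QL test). Every 90d -P library of novel_286 lay below every 90d +P library, whereas the 30d groups overlapped. Its log2 fold change was 0.70 within 30d and -2.28 within 90d (edgeR QL test, unadjusted p = 0.590 and 0.102). novel_196 ranged from 28.1 to 957 TPM in -P libraries and from 26.3 to 892 TPM in +P libraries. novel_269 went opposite ways on the 2 days, with 1.88, 1.31 and 2.85 TPM in 30d -P libraries against 3.48, 18.4 and 15 TPM in 30d +P libraries, and 13.2, 12.1 and 10.8 TPM in 90d -P libraries against 0.832, 5.79 and 2.20 TPM in 90d +P libraries. On the TPM scale the -P and +P libraries of novel_269 were apart within each day but in reverse order, and on TMM-scaled counts the 30d groups overlapped.

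novel_124 and novel_188 were too low to test. novel_124 had 1 count over the 6 -P libraries and 49 over the 6 +P libraries, of which 38 were in 30d +P library B. novel_188 had 37 counts over the -P libraries, 36 of them at 90d, and 12 over the +P libraries. In all, 83 miRNAs were not tested, 6 known and 77 predicted, and none of them exceeded 104 counts in a library. Some were seen almost only under +P: novel_289 had 0 counts over the -P libraries and 35 over the +P libraries, in 3 of 6, and novel_227 had 2 and 126 counts. Of the 126, 46 were in 30d +P library A and 74 in 30d +P library C. Of the known ones, aqc-miR156b, whose family targets SPL factors of the juvenile phase, had 25 counts in 5 of 6 -P libraries and 10 in 3 of 6 +P libraries. With no filter on low counts, aqc-miR156b, novel_124, novel_227 and novel_289 passed the study's rule. All but novel_124 had been picked after seeing these counts, so their passing is no support.

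The make-up of the libraries as a whole differed between -P and +P by less than the spread between libraries when both days were averaged. Known miRNAs held 66.9 ± 8.66% of counts in -P libraries and 67.3 ± 10.5% in +P libraries (SD, n = 6 each), a difference of -0.387 percentage points (exact permutation test within day, p = 0.95). The Shannon index of the counts, in bits, was 2.67 ± 0.209 in -P libraries and 2.60 ± 0.511 in +P libraries, a difference of 0.0666 (exact permutation test within day, p = 0.70). Total counts differed by 7522 (exact permutation test within day, p = 0.985). All 4 composition measures had an adjusted p of 0.985 over the 4 tests, which were two-sided over 400 arrangements, with 0.005 the smallest p they allow. Within days, the -P minus +P difference was 0.916 percentage points at 30d and -1.69 at 90d for the share of known miRNAs, and 5.37 at 30d and -4.99 at 90d for the share of aqc-miR166e. For the Shannon index it was -0.192 at 30d and 0.325 at 90d, and for total counts -140081 at 30d and 155124 at 90d. All 4 measures thus had one sign at 30d and the other at 90d, and that change was not tested.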

How the data were processed

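Small RNA of leaves was sequenced in 12 libraries (NEBNext small RNA kit, without molecular identifiers, so limits cover counting error only). The authors removed low-quality and adapter reads and reads of other RNA classes, and predicted miRNAs with miREvo and mirdeep2. The submitters' processing notes name Bowtie and DESeq2 without versions, and the genome build was not given in the sources used here. Raw read counts of 220 miRNAs per library were deposited. The deposited TPM values equal counts scaled to the same total in every library, with no length term. The authors' group means were left out.

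Groups came from the sample labels. Counts were tested with edgeR 4.0.16, by its quasi-likelihood (QL) F test (older method, the installed default) in R 4.3.3, with TMM scaling, filterByExpr at a minimum count of 10 and the model day plus phosphorus, two-sided, with Benjamini-Hochberg adjustment over 137 miRNAs. SE was the absolute log2 fold change over the square root of F. A model of 4 groups gave the effects within each day and their difference. Composition was compared by exact permutation within day. Alternatives were other scalings, filters, edgeR methods and models, DESeq2 1.42.0, limma 3.58.1, replicate letters as a block, and leaving out libraries. Differences between both days under other settings, and group separation on TMM-scaled counts, were added after seeing the data.

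Named miRNAs were every tested known miRNA, those with an adjusted p under 0.05, the 8 higher and 8 lower with the smallest p, the 6 the study paired with targets or measured by qRT-PCR, and the 3 most abundant. The low-count miRNAs novel_186, novel_227, novel_289, novel_298 and aqc-miR156b, and novel_18, novel_83, novel_94 and novel_105, were picked after seeing their values. The comparison, the members and the lists were chosen with earlier results of these data known.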

Additional observations from a re-analysis of the deposited data

Results flagged for a closer look

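For novel_73, aqc-miR399 and novel_269, a 90d minus 30d difference in the phosphorus effect had an unadjusted p under 0.05. None passed after adjustment (edgeR QL test, adjusted p = 0.530 for each). These were 3 of the 7 miRNAs among 137 (5.11%) with an unadjusted p under 0.05 for that difference. That share is near the 0.05 of the threshold itself, so it is no result about the named miRNAs. The other 4, which are not described elsewhere, were novel_94, with a positive 90d minus 30d difference, and novel_18, novel_83 and novel_105, with a negative one. The 90d minus 30d difference in log2 fold change was 8.32 for novel_73 (unadjusted p = 0.00774) and 6.52 for aqc-miR399 (unadjusted p = 0.00387), both of them at 0 counts in all 90d +P libraries, which makes the fitted size depend on how 0 is handled. Both also entered the test through their -P libraries. For novel_269 the difference was 4.16 (unadjusted p = 0.0155, edgeR QL test). Its level was lower under -P at 30d and higher at 90d in every pair of libraries on the TPM scale. On TMM-scaled counts its 30d groups overlapped, and its 90d groups did not. Some miRNAs with too few counts to be tested had more counts under -P. novel_188 had 37 counts over the 6 -P libraries and 12 over the 6 +P libraries. novel_186 had 10 and 2 counts, and novel_298 had 12 and 2 counts, with all 12 of novel_298 in the 90d -P libraries.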

How the results depend on the processing

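The number of miRNAs with an adjusted p under 0.05, 2 in the main analysis, was 0 with RLE size factors, with library totals and with totals without aqc-miR166e, 1 with robust edgeR, 3 with TMMwsp and with the stricter filter, 4 with no filter, 5 with limma at either pseudocount (1 or 10 added to TPM), 6 with the mean of both days from 4 groups, 8 with the newer edgeR method (5 higher, 3 lower), 9 with DESeq2 (6 higher, 3 lower) and 8 with DESeq2 and no filter (6 higher, 2 lower). Leaving out each library gave 0 to 6. The count by the study's rule, 12, was 19 with no filter and 7 with limma on log2(TPM + 10), and 9 to 15 with each library left out. In the fit with no filter, the median log2 fold change over the same 137 miRNAs of the main analysis was 0.15, against -0.21 in the main fit. With the replicate letter as a block, over all libraries or within day, 0 miRNAs passed the adjusted threshold. Same-letter libraries correlated at 0.211 to 0.455 at 30d and at -0.267 to 0.248 at 90d, so the letters were not taken as pairs. Each 30d -P library correlated best with the +P library of its own letter, and no 90d one did. Over 29 alternatives the log2 fold change of novel_36 ranged from 4.62 to 6.24 (called in 16) and that of novel_61 from 2.60 to 3.43 (called in 15). Of 35 named miRNAs tested, 15 changed sign in at least 1 alternative, none of them called in any, and novel_286 did so at 0.16 with limma on log2(TPM + 1). With 1 library left out, the -P minus +P difference ranged from -99195 to 172451 in total counts, from -3.38 to 2.69 percentage points in the share of known miRNAs, from -3.84 to 2.50 in that of aqc-miR166e and from -0.0184 to 0.184 in the Shannon index. The cause of these changes was not tested.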
